A study of Homo sapiens with 2 samples.

Results

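The regions described here are peaks of open chromatin at the promoters of non-coding RNA genes in HepG2 cells. They are the listed peaks whose annotation class is promoter-TSS and whose listed gene is of the type ncRNA, snRNA, snoRNA, rRNA or pseudo, without the mitochondrial chromosome. They numbered 766 of 56159 listed peaks, and 7179 peaks of any gene type lay at promoters. HepG2 is a liver cancer cell line that keeps much of the gene expression of hepatocytes. The control cells had received lentiviral particles with a scrambled small hairpin RNA, and the NR2E3-depleted cells received particles with a hairpin against NR2E3, an orphan nuclear receptor. Both came from the same HepG2 line in the same medium, and each was profiled as 1 library by FAIRE-seq, which sequences the DNA that formaldehyde does not tie to nucleosomes. The study compared them to find where chromatin opened or closed after loss of NR2E3. Its peaks were deposited as a common list (found in both libraries), a control-specific list and a depleted-specific list. With 1 library per group there is no replicate check and no test between conditions. Intervals below are at 95%. They take each peak as an independent count and hold no error beyond counting.

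Non-coding RNA genes are a mixed group. Long non-coding RNAs such as MALAT1 and NEAT1 are transcribed by RNA polymerase II and many start back to back with a protein-coding gene, so that 1 open region serves both. Host genes hold snoRNAs or miRNAs in their introns or exons, and the small RNA is cut from the host transcript. A set of short RNAs (7SK, U6, RNase P RNA, RNase MRP RNA and the vault RNAs) is made by RNA polymerase III, for several of them from a promoter with a TATA box ahead of the start. For most miRNAs and intronic snoRNAs the annotated start is the 5′ end of the processed RNA and not a start of transcription, so "promoter" is then a position and not a function.

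The peak with the highest score in each list is shown first, since these 3 differ in the features that the lists are compared on below. Each is the 300 bases of the listed interval on the plus strand of hg38. In the common peak the capitals mark an arginine tRNA gene of RefSeq, TRR-ACG1-3. In the other 300-base sequences, here and further on, capitals mark GGGCGG (the core of an Sp1 site) and CCAAT (the core of an NF-Y site) on either strand.
LOC101926933, common, chr14:22929570-22929869: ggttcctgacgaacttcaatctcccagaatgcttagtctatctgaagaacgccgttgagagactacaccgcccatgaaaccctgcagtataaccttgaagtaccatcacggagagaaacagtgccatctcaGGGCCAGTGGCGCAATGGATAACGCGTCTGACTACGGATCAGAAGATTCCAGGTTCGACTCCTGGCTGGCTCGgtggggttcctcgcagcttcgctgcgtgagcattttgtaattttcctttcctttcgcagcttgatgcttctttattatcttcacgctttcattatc
HNF4A-AS1, control-specific, chr20:44395473-44395772: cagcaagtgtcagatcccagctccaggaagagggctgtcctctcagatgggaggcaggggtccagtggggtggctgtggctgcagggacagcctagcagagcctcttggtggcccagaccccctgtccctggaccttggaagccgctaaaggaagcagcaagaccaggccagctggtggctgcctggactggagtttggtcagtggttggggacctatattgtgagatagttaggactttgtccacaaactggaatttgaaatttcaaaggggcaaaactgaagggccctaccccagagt
LOC107984813, depleted-specific, chr16:67562115-67562414: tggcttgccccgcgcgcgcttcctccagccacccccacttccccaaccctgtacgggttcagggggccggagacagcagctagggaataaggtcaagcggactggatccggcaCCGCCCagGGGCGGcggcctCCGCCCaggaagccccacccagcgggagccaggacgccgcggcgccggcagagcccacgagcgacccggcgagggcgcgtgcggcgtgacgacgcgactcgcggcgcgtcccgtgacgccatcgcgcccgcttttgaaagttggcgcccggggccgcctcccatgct

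The LOC101926933 peak scored 22.8, which is 56 tags (sequenced fragments). Its centre lay 110 bp downstream of the listed start and 311 bp from the start of PRMT5, a protein arginine methyltransferase. All 73 bases of the tRNA gene lay inside the peak, which also held 1 GGGCGG (as ccgccc, not marked) and no CCAAT. The GC content of this peak was 49.3%. The control-specific HNF4A-AS1 peak scored 9.35 (23 tags), had a GC content of 57.0% and held neither motif. Its GC content was above that of the common peak, the reverse of the list medians given below. HNF4A-AS1 runs opposite to HNF4A, a master regulator of hepatocyte genes, and starts 5533 bp from its nearest annotated start. The depleted-specific LOC107984813 peak scored 15.2 (30 tags), had a GC content of 74.0% and held GGGCGG 3 times. Its accession is now CTCF-DT in RefSeq, and it lay 203 bp from the start of CTCF, which encodes a chromatin insulator protein.

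Of the 766 members, 306 were common, 130 were control-specific and 330 were depleted-specific. As shares of the members these are 39.9%, 17.0% and 43.1%, where promoter peaks of any gene type were 47.9% common, 12.5% control-specific and 39.5% depleted-specific. Depleted-specific members therefore outnumbered control-specific members 2.54 to 1 (interval 2.07 to 3.13). The ratio was 3.24 (2.99 to 3.52) for 2495 against 770 protein-coding promoter peaks and 1.57 (1.54 to 1.61) over all listed peaks. The ratio of the non-coding to the protein-coding ratio was 0.783 (0.627 to 0.983). Its interval reached past 1 when only peaks of at least 15 tags were counted (0.780, 0.563 to 1.09) and when peaks within 500 bp (0.837, 0.656 to 1.07) or 1000 bp (0.820, 0.674 to 1.001) of the listed start replaced the promoter class. Put as shares, non-coding genes made up 8.89% of common promoter peaks (7.96 to 9.89), 14.4% of control-specific ones (12.2 to 16.9) and 11.6% of depleted-specific ones (10.5 to 12.9). The depleted-specific minus the control-specific share was -2.82 percentage points (-5.54 to -0.264), and the common minus the control-specific share was -5.55 points (-8.19 to -3.10). The interval of the first included 0 with at least 15 tags (-6.87 to 0.783) and within 500 bp of the start (-4.82 to 0.658).

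Counted per library, the control library had 436 of these peaks and the depleted library 636, although by the steps in the scores, if both were scaled alike, the depleted library had 0.802 times the tags. Common peaks made up 70.2% (65.6 to 74.4) of the first and 48.1% (44.2 to 52.1) of the second. For protein-coding promoters the same shares were 80.2% (79.0 to 81.5) and 55.6% (54.3 to 56.9). A smaller share of the non-coding peaks was thus common, with a difference from protein-coding promoters of -10.1 points in the control library (-14.8 to -5.61) and of -7.51 points in the depleted library (-11.7 to -3.33).

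The position on the genome moved with these ratios. 6 chromosomes (2, 6, 14, 16, 17 and 20) held over 3 times the median density of control-specific peaks, and they were picked on that list. They held 60.8% of control-specific members, 56.2% of common members and 41.8% of depleted-specific members, against 47.7%, 48.7% and 30.5% for protein-coding promoters. On these chromosomes the non-coding ratio was 1.75 (1.32 to 2.33) beside 2.07 for protein-coding promoters, and on the others it was 3.76 (2.75 to 5.23) beside 4.31. The ratio of ratios was 0.844 (0.617 to 1.16) on the first and 0.875 (0.626 to 1.24) on the second. Both intervals include 1, so the lower ratio at non-coding promoters is not separated from 1 within either set. Chromosome X held no member, and 113 peaks of any kind.

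**Figure D1:**
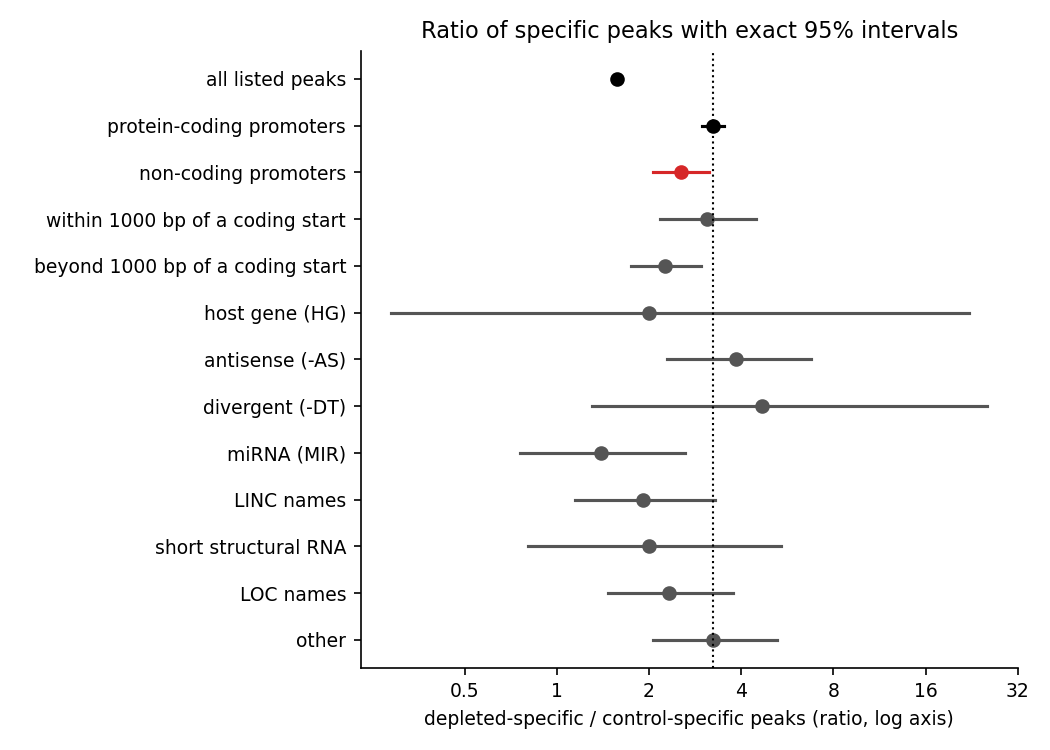
Ratio of depleted-specific to control-specific peaks (horizontal log axis) for all listed peaks, protein-coding promoters, non-coding promoters and the subsets of the latter; points are ratios, lines are exact 95% intervals and the dotted line is the protein-coding ratio of 3.24. The non-coding ratio of 2.54 lies to its left, MIR genes lie furthest left at 1.40 and divergent transcripts furthest right at 4.67, with an interval from 1.30 to 25.3.

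By gene type, 650 members were ncRNA, 84 pseudo, 17 snRNA and 15 snoRNA, and no member was rRNA. In the ncRNA type 266 peaks were common, 113 control-specific and 271 depleted-specific, a ratio of 2.4 (1.92 to 3.01). At pseudogenes 28 were common, 11 control-specific and 45 depleted-specific, a ratio of 4.09 (2.08 to 8.77), whose interval spans the protein-coding ratio. Without the 6 dense chromosomes described above the pseudogene ratio was 10.3 (3.22 to 52.8), from 31 depleted-specific and 3 control-specific peaks. The protein-coding ratio there was 4.31, and the ratio of ratios was 2.399 (0.743 to 12.3), an interval that includes 1. On the dense chromosomes alone the pseudogene ratio was 1.75 (0.685 to 4.81), beside 2.07 for protein-coding promoters. The snRNA type had 8, 2 and 7 peaks in the same order, and the snoRNA type had 4, 4 and 7. Among promoter peaks of any gene type the shares were 47.9%, 12.5% and 39.5%.

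By name, the members fell into 8 classes. At antisense genes (-AS) 65 peaks were common, 19 control-specific and 73 depleted-specific, and divergent transcripts (-DT, which start from the promoter of a neighbour and run away from it) had 11, 3 and 14. Depleted-specific peaks made up 46.5% of antisense members (38.5 to 54.6) and 14 of 28 divergent members (interval 30.6% to 69.4%). Both intervals include the share among promoter peaks of any gene type (39.5%) and among all members (43.1%). Intergenic LINC genes had 42, 24 and 46 peaks, a ratio of 1.92 (1.15 to 3.28). MIR genes had 20, 20 and 28 peaks, a ratio of 1.40 (0.761 to 2.62). LOC names, which are provisional, had 75, 28 and 65, and symbols of no class had 60, 26 and 84. Short structural RNAs had 16, 8 and 16 peaks, and host genes had 17, 2 and 4.

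MIR genes made up 15.4% of control-specific members (9.66 to 22.8), 8.48% of depleted-specific members (5.71 to 12) and 6.54% of common members (4.04 to 9.91). The depleted-specific minus the control-specific share was -6.90 points for MIR genes (-14.8 to -0.165). Against protein-coding promoters their ratio of ratios was 0.432 (0.233 to 0.814). It was 0.446 (0.184 to 1.07) on the 6 dense chromosomes and 0.531 (0.205 to 1.54) on the others, so neither interval within a set excludes 1. MIR was the only class of the 8 whose interval over all chromosomes lay on 1 side of 1, and the intervals are not adjusted for looking at 8 classes. Antisense genes had a ratio of ratios of 1.19 (0.703 to 2.09) and LINC genes of 0.592 (0.351 to 1.02).

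**Figure D2:**
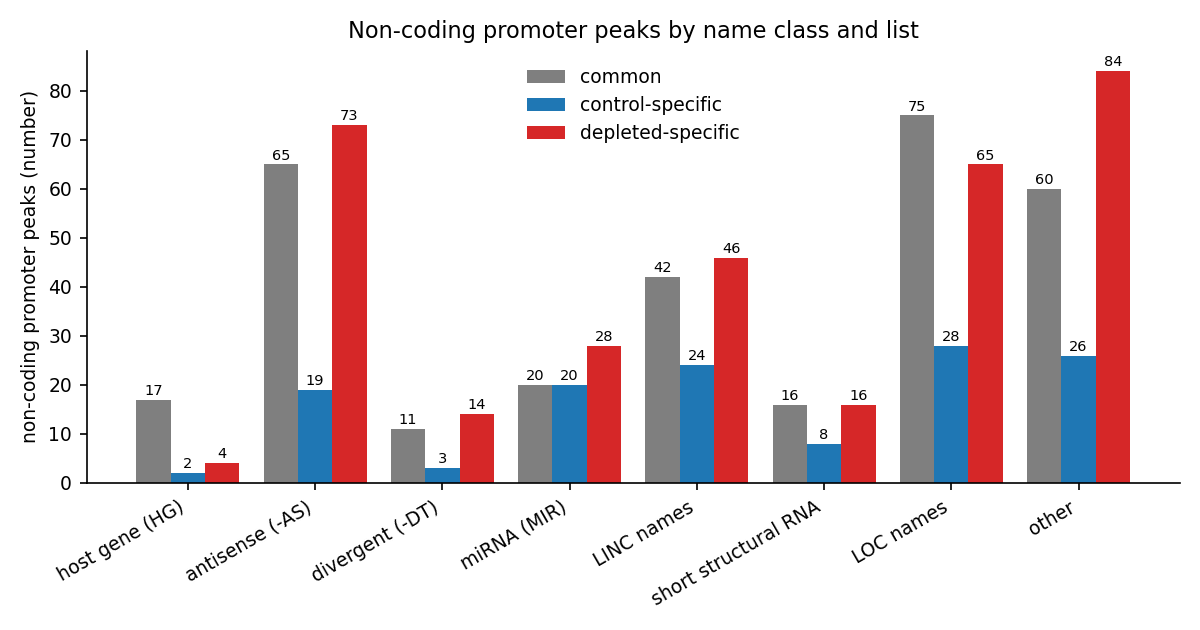
Number of non-coding promoter peaks (vertical axis) in each name class (horizontal axis) in the common, control-specific and depleted-specific lists, with the count above each bar. MIR genes had as many control-specific as common peaks (20 each), while antisense genes had 73 depleted-specific against 19 control-specific peaks and host genes were mostly common (17 of 23). Of promoter peaks of any gene type, 47.9% were common, 12.5% control-specific and 39.5% depleted-specific.

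Host genes had a larger part of their peaks in the common list than each other class. Of the 23 host gene peaks, 17 were common and 4 (17.4%, interval 4.95 to 38.8) were depleted-specific. Promoter peaks of any type were 47.9% common and 39.5% depleted-specific. The list of snoRNA host genes holds genes of RNAs that are spliced and then cut to release snoRNAs for ribosome assembly. On it 19 genes had a peak, 16 of them common, beside the same 47.9%. SNHG17 scored 11.8 (29 tags), ZFAS1 11.8 (29 tags) and SNHG10 11.4 (28 tags), and SNHG3 had 27 tags. SNHG1, SNHG5, SNHG11, SNHG16, SNHG19, SNHG20, SNHG21, SNHG25, SNHG29, SNHG31, SNHG32 and DANCR were also common, with scores from 5.29 at SNHG21 to 9.76. SNHG8 (7.73, 19 tags) and SNHG4 (5.69, 14 tags) were control-specific. SNHG30 was depleted-specific with a score of 12.2 (24 tags, Poisson interval 15.4 to 35.7), and the nearest peak of the control library lay 241073 bp away. GAS5 and EPB41L4A-AS1 had no member peak.

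Host genes of miRNAs had 6 peaks, 3 common (MIR210HG, MIR3142HG and MIR762HG) and 3 depleted-specific (MIR17HG, MIR1915HG and MIR194-2HG). Beside these stand 47.9% common and 39.5% depleted-specific among promoter peaks of any gene type, and nothing is read from 6 peaks. MIR17HG carries the miR-17 to miR-92a cluster, a set of growth-promoting miRNAs. Its peak scored 10.6 (21 tags, interval 13.0 to 32.1), had a GC content of 74.7% and lay 316 bp upstream of the start, and the nearest control-library peak was 1877132 bp away. It lies on chromosome 13, outside the dense chromosomes, which held only 1 common and 1 control-specific member, so the distance is not particular to this gene. MIR194-2HG carries miR-194 and miR-192, which are abundant in liver. Its peak had 11 tags (5.49 to 19.7), near the lowest in its list, with its centre 3 bp upstream of the start. MIR210HG, the host of the hypoxia-induced miR-210, was common with 17 tags.

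The peak at MIR17HG is printed because it holds 4 GGGCGG (the last 2 overlap) and 1 CCAAT in 300 bases.
MIR17HG, depleted-specific, chr13:91347355-91347654: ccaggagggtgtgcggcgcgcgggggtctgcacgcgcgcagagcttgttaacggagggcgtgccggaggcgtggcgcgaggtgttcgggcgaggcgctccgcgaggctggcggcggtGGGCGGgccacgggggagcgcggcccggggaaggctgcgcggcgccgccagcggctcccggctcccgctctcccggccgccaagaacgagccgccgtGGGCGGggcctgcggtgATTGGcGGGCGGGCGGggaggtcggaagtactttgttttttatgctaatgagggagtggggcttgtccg

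The main mature products of MIR17HG, MIR194-2HG and MIR210HG are given with the seed (bases 2 to 8, which pair with targets) in capitals, from RefSeq on GRCh38.p14. miR-17-5p and miR-20a-5p share the seed AAAGUGC, and miR-19a-3p and miR-19b-3p share GUGCAAA. miR-18a-5p differs from the first pair within the seed, and miR-92a-3p, miR-194-5p, miR-192-5p and miR-210-3p each have a seed of their own.
hsa-miR-17-5p: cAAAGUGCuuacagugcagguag
hsa-miR-20a-5p: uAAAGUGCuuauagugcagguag
hsa-miR-18a-5p: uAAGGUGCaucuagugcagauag
hsa-miR-19a-3p: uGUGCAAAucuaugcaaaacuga
hsa-miR-19b-3p: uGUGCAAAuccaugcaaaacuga
hsa-miR-92a-3p: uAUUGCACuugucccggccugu
hsa-miR-194-5p: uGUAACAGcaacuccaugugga
hsa-miR-192-5p: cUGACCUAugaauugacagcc
hsa-miR-210-3p: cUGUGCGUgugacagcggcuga

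Of the 68 peaks named for a MIR gene, 34 lay at a miRNA inside a host transcript on the same strand and 25 (36.8%) lay within 1000 bp of a protein-coding start. On the list of liver and cancer miRNAs, MIR21 and MIR22 had a peak and the others, MIR122 among them, had none. MIR22 had 1 peak in each specific list. The control-specific peak (14 tags) was centred 43 bp downstream of the hairpin start and the depleted-specific peak (18 tags) 839 bp upstream. MIR22 lies in its host MIR22HG. MIR21, an oncogenic miRNA made from within and beyond VMP1, had a depleted-specific peak of 13 tags centred 494 bp upstream of the hairpin. Within 5000 bp of the MIR21 start the lists held 3 common peaks (35, 18 and 24 tags), 5 depleted-specific peaks (12 to 15 tags) and no control-specific peak. The mature forms of both are shown for their seeds.
hsa-miR-21-5p: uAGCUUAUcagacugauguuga
hsa-miR-22-3p: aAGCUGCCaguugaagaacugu

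Among lncRNA genes linked to liver or liver cancer, 9 of 27 listed symbols had a promoter peak, 11 peaks in all: 3 common, 2 control-specific and 6 depleted-specific. Promoter peaks of any gene type were 47.9%, 12.5% and 39.5% in these lists, and nothing is read from the split of 11 peaks. HULC, a lncRNA raised in liver cancer, had a control-specific peak of score 6.51 (16 tags, interval 9.15 to 26.0), centred 95 bp downstream of its start. No peak of either other list lay within 5000 bp of that start. MALAT1, TUG1 and LUCAT1 were common with 14, 15 and 16 tags. NEAT1, the scaffold of nuclear paraspeckles, had a depleted-specific peak 470 bp upstream of its start with 13 tags and a GC content of 75%. A further 2 depleted-specific peaks lay 1330 and 2646 bp upstream of NEAT1 and a common peak lay 4001 bp upstream. TALAM1, the antisense partner of MALAT1, had a depleted-specific peak of 13 tags, and it is named here after its value was seen. OIP5-AS1 (14 tags), PVT1 (12 tags) and DLEU2 (2 peaks, 19 and 11 tags) were depleted-specific. Among the others, no promoter peak was listed for H19, HOTAIR, HOTTIP, MEG3, UCA1, CRNDE, LINC00261, LINC01018, LINC01093, LINC00844, CYTOR, FAM99A, FAM99B, FTX, JPX, FENDRR or HAGLR. LINC00261, next to FOXA2, had no promoter peak, and outside the promoter class 8 of its peaks were common, 13 control-specific and 17 depleted-specific. All peaks outside promoters numbered 10927, 15336 and 22717 in these lists, and nothing is read from the split at LINC00261.

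HNF4A-AS1 had a peak in both specific lists. The control-specific peak (23 tags, interval 14.6 to 34.5) was centred 84 bp inside the gene, and the depleted-specific peak (17 tags, 9.90 to 27.2) was centred 670 bp upstream, 754 bp from the first. A common peak of 36 tags lay 933 bp inside the gene. The start of HNF4A-AS1 thus lay in a stretch with peaks of all 3 lists, and neither library lacked a peak there.

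Of the 7 lncRNA genes linked to p53, DINOL alone had a promoter peak. DINOL (DINO) is a p53-induced lncRNA that starts 151 bp from a start of CDKN1A, the gene of the cell cycle inhibitor p21, and runs away from it. A common peak of score 6.91 (17 tags) was centred 651 bp inside DINOL, and a depleted-specific peak of score 9.63 (19 tags, interval 11.4 to 29.7) was centred 18 bp upstream of its start and 133 bp from the CDKN1A start. The promoter class of the common peak was given for a CDKN1A transcript, and its centre lay 802 bp from a CDKN1A start. At DINOL itself that centre is beyond the 100 bp after a start that the class covers. The common peak had a GC content of 49.0% and no GGGCGG, and the depleted-specific peak had 72.7% and 4 of them (the last 2 overlap). Since these peaks lie at different distances from the start, their sequences do not compare the lists at the same place. A further depleted-specific peak (12 tags) lay 9 bp from an upstream start of CDKN1A, 2108 bp inside DINOL. The control library had no peak of its own within 5000 bp of the DINOL start beyond the common one. Outside the promoter class, PANDAR of the same p53-linked list was the named gene of 3 control-specific peaks, 1 common peak and no depleted-specific peak. TP53TG1 was named for 1 control-specific peak, and MIR34AHG for 1 control-specific peak and 2 depleted-specific ones. LINC-PINT was named for 5 common peaks and 2 depleted-specific ones. All peaks outside promoters numbered 10927 common, 15336 control-specific and 22717 depleted-specific, and nothing is read from counts this small. The sequences of both DINOL peaks show the difference in GC boxes.
DINOL, common, chr6:36677759-36678058: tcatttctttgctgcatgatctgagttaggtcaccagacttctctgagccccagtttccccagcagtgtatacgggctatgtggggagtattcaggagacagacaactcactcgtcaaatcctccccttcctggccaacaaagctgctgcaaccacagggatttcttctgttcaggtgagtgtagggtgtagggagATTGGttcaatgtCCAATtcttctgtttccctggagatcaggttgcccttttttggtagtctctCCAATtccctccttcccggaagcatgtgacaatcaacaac
DINOL, depleted-specific, chr6:36678428-36678727: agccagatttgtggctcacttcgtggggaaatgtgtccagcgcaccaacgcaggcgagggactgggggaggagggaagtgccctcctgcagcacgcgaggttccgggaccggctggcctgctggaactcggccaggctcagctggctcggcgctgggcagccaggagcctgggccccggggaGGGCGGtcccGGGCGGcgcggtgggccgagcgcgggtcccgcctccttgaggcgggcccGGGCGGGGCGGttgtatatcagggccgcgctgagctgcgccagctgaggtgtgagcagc

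The common DINOL peak held 3 CCAAT and the depleted-specific one held none.

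Short structural RNA genes had 40 peaks at 36 start positions, with 16 common, 8 control-specific and 16 depleted-specific. The polymerase III genes among them (RPPH1, RMRP, RN7SK, U6, U6atac and vault RNA genes) had 14 peaks, 8 common, 2 control-specific and 4 depleted-specific. Promoter peaks of any gene type were 47.9% common, 12.5% control-specific and 39.5% depleted-specific. Against protein-coding promoters the short structural RNA genes had a ratio of ratios of 0.617 (0.248 to 1.67), an interval that includes 1. Nothing is read from these splits. RPPH1, the RNA of RNase P, was common and among the 5 highest members of that list with a score of 15.9 (39 tags), 147 bp from the start of PARP2. RMRP (13 tags), RNU6ATAC (21 tags), VTRNA1-1 (19 tags) and VTRNA1-2 (22 tags) were also common. VTRNA1-3 was control-specific with 15 tags. RN7SK, whose RNA holds the elongation factor P-TEFb inactive, was depleted-specific with 19 tags, centred 8 bp upstream of its start. A common peak of 23 tags at the promoter of GSTA4 lay 355 bp from it, and a control-specific peak of 16 tags lay 1413 bp upstream of the RN7SK start.

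The U6 genes had 7 peaks at 5 positions, among them RNU6-2 (11 tags, depleted-specific). The symbols in the lists are not unique for U6, since RNU6-9 was given to peaks at 3 positions and the start at chr14:32202045 was called RNU6-9 in the common list and RNU6-1 in the control-specific list. That was the only start position listed under different names. Its common peak (34 tags) was centred 747 bp upstream and its control-specific peak (21 tags) 101 bp upstream. U6 genes have near-identical copies, so reads could be placed at the wrong copy, and the counts at single U6 genes are uncertain.

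The 60 bases around the start of 6 polymerase III genes are shown, 50 ahead of the start and 10 from it, read along the gene on hg38. The capitals mark TATA between 40 and 16 bases ahead of the start. These 6 were picked for holding it, out of 9 such starts without the vault RNA genes. RNU6-2, RNU6-9 on chromosome 19 and RNU6ATAC did not hold it and are not printed. The 3 U6 stretches end in the same 10 bases, the first of the U6 RNA.
RPPH1, chr14:20343402-20343461, minus strand, common: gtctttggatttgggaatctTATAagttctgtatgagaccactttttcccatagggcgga
RMRP, chr9:35658009-35658068, minus strand, common: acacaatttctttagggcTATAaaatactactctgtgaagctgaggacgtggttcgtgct
RN7SK, chr6:52995570-52995629, plus strand, depleted-specific: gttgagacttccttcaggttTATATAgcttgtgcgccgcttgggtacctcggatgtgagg
RNU6-1, chr15:67840036-67840095, minus strand, common: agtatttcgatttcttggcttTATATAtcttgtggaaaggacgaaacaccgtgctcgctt
RNU6-9, chr14:32201995-32202054, plus strand, common and control-specific: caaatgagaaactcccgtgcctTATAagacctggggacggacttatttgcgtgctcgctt
RNU6-9, chr14:32203260-32203319, minus strand, common and depleted-specific: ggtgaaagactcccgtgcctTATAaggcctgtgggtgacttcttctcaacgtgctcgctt

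TATA, read on the gene's strand only, was found in that window at 6 of 9 RPPH1, RMRP, RN7SK and RNU6 start positions (U6atac included), at 10 of 36 short structural RNA starts (27.8%, interval 14.2 to 45.2), at 15 of 592 other non-coding starts without MIR genes (2.53%, 1.42 to 4.14) and at 4.45% of 78467 protein-coding transcript starts. VTRNA1-1 and VTRNA1-2, both common, held TATA there. VTRNA1-3, which was control-specific, did not.

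The spliceosomal and related genes transcribed by polymerase II were in all 3 lists. RNU4ATAC (11 tags), RNU5B-1 (16 tags), RNU5D-1 (15 tags) and RNU5E-1 (14 tags) were common. RNU11 of the minor spliceosome (18 tags), RNU7-1 of histone mRNA processing (16 tags) and SCARNA2 (13 tags) were depleted-specific. RNU4-2, a gene of the U4 RNA, had a control-specific peak of 16 tags centred 55 bp inside the gene and a depleted-specific peak of 11 tags centred 249 bp upstream. The snoRNA genes had 15 peaks, 4 common, 4 control-specific and 7 depleted-specific, and 14 of them lay inside a host gene on the same strand. Shares of promoter peaks of any gene type were 47.9%, 12.5% and 39.5% in these lists, and nothing is read from the split of 15 peaks. SNORD17, in the host SNX5, had 2 depleted-specific peaks (22 and 14 tags). SNORA75 and SNORD82 (12 and 13 tags), both in introns of the nucleolin gene NCL, were depleted-specific, while SNORD1C (15 tags) and SNORD1B (16 tags), both in SNHG16, were control-specific and common. Of the others, SNORA116 (23 tags), SNORA71D (17 tags) and SNORD118 (14 tags) were common. SNORA80D (17 tags), SNORD71 (16 tags), SNORD13 (11 tags) and the Cajal body RNA SCARNA27 (12 tags) were control-specific. SNORD12B and SNORD100 (13 tags each) and SNORD117 (11 tags) were depleted-specific, as was RN7SL832P, a 7SL pseudogene (14 tags).

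A few peaks overlapped another small gene than the one they were named for. Any overlap was counted, and the peaks of LINC02136 and MIR4638 held only a part of the tRNA gene. 8 members overlapped a tRNA gene of RefSeq, 6 of them common (1.96% of common members, interval 0.723 to 4.22), 1 control-specific (MIR4638, over TRV-CAC1-5) and 1 depleted-specific (HCG11, over TRL-CAG1-7). Beside LOC101926933 the common ones were LINC02136 (TRM-CAT2-1), HCG14 (TRL-CAA1-1), LINC01556 (TRL-AAG2-2), LOC105374988 (TRY-GTA1-1) and MIR4521 (TRS-GCT4-3). In the common list the share over a tRNA gene was 0.352% at protein-coding promoters (0.176 to 0.629) and 0.540% outside promoters (0.411 to 0.696). Over all lists it was 1.04% for the members (0.452 to 2.05) and 0.297% for protein-coding promoters (0.179 to 0.464), and these intervals overlap. LOC101928626, whose common peak had the next highest score (17.9, 44 tags), lay on chromosome 1 over MTND2P28, a copy of a mitochondrial gene, where reads from mitochondrial DNA can align. The part of such reads in its score was not tested. The members over tRNA genes were counted after the sequence of the highest peak had been read.

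Of the other peaks with the highest scores, some lay near a protein-coding start and some did not. Among common members CRYM-AS1 had 42 tags, 2245 bp from the start of CRYM, and NBR2 had 41. The NBR2 peak lay 38 bp from the start of BRCA1, the breast cancer gene with which NBR2 shares its promoter. Among control-specific members CEBPB-AS1 and AFF1-AS1 had 22 tags each and LINC01089 had 21. The CEBPB-AS1 peak lay 1528 bp from CEBPB, a transcription factor gene of the liver, and the AFF1-AS1 peak 105 bp from AFF1. Among depleted-specific members SCOC-AS1 (29 tags) lay 90 bp from SCOC, and LOC344967 (27 tags), LOC148709 and HCG15 (25 tags each) lay over 1000 bp from a protein-coding start.

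Over all members the tags ran from 11 to 56 in the common list (median 17), from 11 to 23 in the control-specific list (median 15) and from 9 to 30 in the depleted-specific list (median 14). The medians for protein-coding promoters were the same 17, 15 and 14. A peak at the median of 15 tags has a Poisson interval of 8.40 to 24.7 tags, an interval that covers the whole control-specific range of 11 to 23. Common scores have the step of the control library and give no level for the depleted one. A specific peak is one that was called in 1 library, and the tags of the other library at that place were not analysed here.

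**Figure D3:**
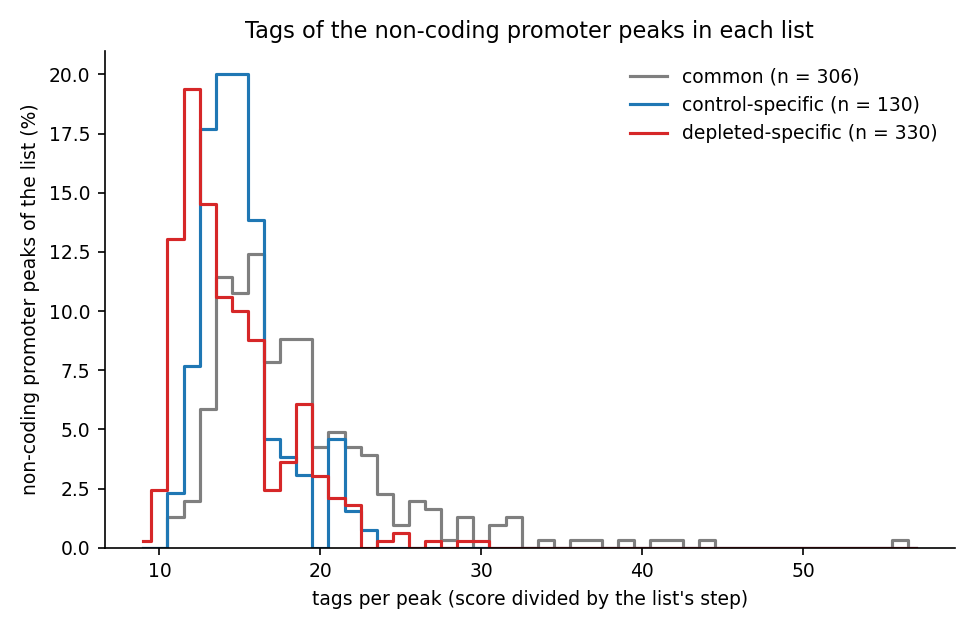
Tags per peak (horizontal axis) against the percentage of that list's non-coding promoter peaks (vertical axis) for the common, control-specific and depleted-specific lists. The specific lists end at 23 and 30 tags, while the common list reaches 56.

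Of the 766 members, 332 (43.3%, interval 39.8 to 46.9) had their centre within 1000 bp of a protein-coding start. The share was 51% (45.2 to 56.7) in the common list, 33.1% (25.1 to 41.9) in the control-specific list and 40.3% (35 to 45.8) in the depleted-specific list. Common members were near more often than control-specific members by 17.9 points (7.40 to 27.7), and depleted-specific members by 7.23 points (-3.06 to 16.9), an interval that includes 0. It did not include 0 when near meant within 500 bp (11.2 points, 1.68 to 19.8) or when only peaks of at least 15 tags were counted (19.4 points, 4.31 to 33.1). Where the strand of the start was known, the non-coding gene ran opposite to the nearby coding gene at 86.8% of common, 82.5% of control-specific and 85.5% of depleted-specific members. All 28 divergent members, 72.0% of antisense members and 9.82% of LINC members were near a coding start. For 179 members (23.4%) the promoter class itself had been given for a protein-coding transcript, while the name was that of the nearest non-coding start.

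Near a coding start the ratio of depleted-specific to control-specific members was 3.09 (2.18 to 4.47), and away from one it was 2.26 (1.75 to 2.95). Against protein-coding promoters these are ratios of ratios of 0.955 (0.665 to 1.39) and 0.699 (0.533 to 0.922). Members away from coding starts had 0.825 (0.533 to 1.31) without the 6 dense chromosomes and 0.783 (0.545 to 1.13) on them alone.

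The sequence content of the peaks differed between the lists and with the distance to a coding start. The median GC content was 58.3% in common, 51.2% in control-specific and 57.3% in depleted-specific members, below the 62.3%, 58.3% and 64.3% of protein-coding promoters and above the 43.7% to 44.7% of peaks outside promoters. Near a coding start the medians were 60.7%, 57.0% and 65.7%, and away from one 53%, 50.3% and 52.3%. The ratio of observed to expected CpG, which is near 1 where CpG is not depleted, had medians of 0.751, 0.479 and 0.700.

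GGGCGG lay within 100 bp of the centre in 44.8% of common members (39.1 to 50.5), in 20.8% of control-specific members (14.2 to 28.8) and in 41.8% of depleted-specific members (36.4 to 47.3). It was found in 53.7% of all promoter peaks and in 4.43% of peaks outside promoters. The depleted-specific share exceeded the control-specific share by 21.0 points (11.4 to 29.7), and the same difference was 17.4 points (13.3 to 21.4) at protein-coding promoters. Near coding starts it was 30.8 points (12.9 to 45.6; 56.4% against 25.6%), and away from them 13.6 points (1.90 to 23.8; 32% against 18.4%). Without the dense chromosomes it was 19.1 points (2.90 to 33.4) and on them 15.8 points (3.60 to 26.5). The motif is made of G and C alone, and the control-specific peaks were also poorer in GC, so the part of base composition in this difference was not tested. The shares of common and depleted-specific members, 44.8% and 41.8%, have intervals that overlap.

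CCAAT lay in the same window in 36.6% of common members (31.2 to 42.3), 23.1% of control-specific members (16.1 to 31.3) and 29.1% of depleted-specific members (24.2 to 34.3). It was found in 36.4% of all promoter peaks and in 26.1% of peaks outside promoters. The difference between the depleted-specific and control-specific shares was 6.01 points (-3.51 to 14.7), an interval that includes 0. A match is a run of letters in the window and does not show that the factor was bound.

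**Figure D4:**
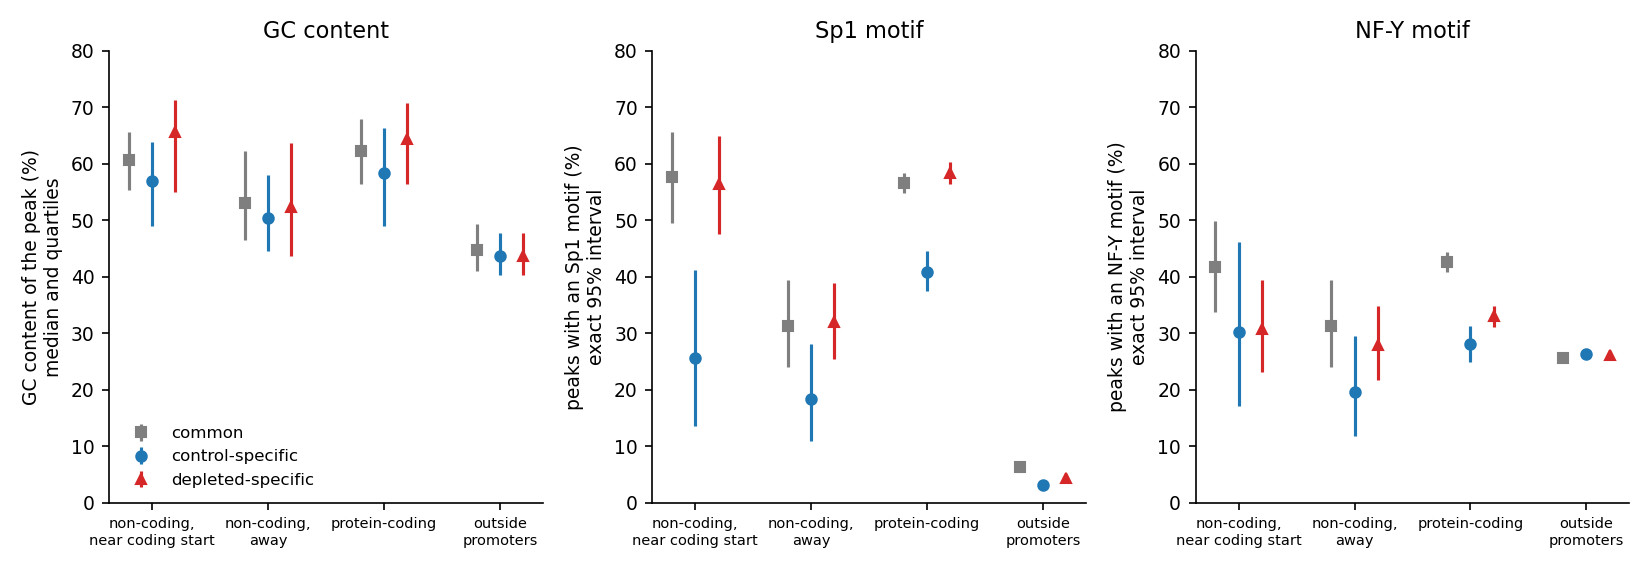
GC content (median and quartiles), share of peaks with GGGCGG and share with CCAAT within 100 bp of the centre (exact 95% intervals), all in percent, for non-coding promoters near and away from protein-coding starts, protein-coding promoters and peaks outside promoters, by list. Control-specific peaks have the lowest share with GGGCGG in each of the 4 groups, from 40.9% at protein-coding promoters to 3.19% outside promoters.

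Since a gene can be named in more than 1 list, the members were matched by the position of their start. The 766 peaks lay at 731 start positions (by name where no position was known), and 35 positions had 2 peaks. Of these, 10 had a control-specific and a depleted-specific peak, 14 a common and a depleted-specific peak, 4 a common and a control-specific peak, 3 had 2 common peaks, 3 had 2 depleted-specific peaks and 1 had 2 control-specific peaks. At the 10 positions with both specific lists the centres lay 304 bp (RNU4-2) to 948 bp (LINC01754) apart. At ABALON, on the opposite strand of BCL2L1, the control-specific peak (21 tags) was centred 516 bp and the depleted-specific peak (20 tags) 886 bp upstream. At LOC101927851 (now LNCATV) the control-specific peak (16 tags) was 554 bp and the depleted-specific peak (17 tags) 244 bp upstream. At TAT-AS1, next to ZNF19, the control-specific peak (21 tags) was 76 bp upstream and the depleted-specific peak (10 tags) 355 bp inside. LINC01754 had 15 control-specific and 11 depleted-specific tags. At LOC102724814 they were 17 and 12, at LOC105376114 14 and 13, and at STARD7-AS1 13 and 12.

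The 4 positions with 2 peaks of 1 specific list were LOC107984813 (CTCF-DT, 30 and 14 tags), SNORD17 and LOC101928674 (13 and 12 tags, next to the cytokine signalling inhibitor SOCS3) in the depleted-specific list and LINC01960 (16 and 13 tags) in the control-specific list. Of the 14 positions with a common and a depleted-specific peak, the depleted-specific peak was nearer to the start at 8 and the common peak at 6. Those named next were chosen after their values were seen. At DINOL, GMDS-DT, LOC101928253 and HCG27 the depleted-specific peak was centred 18, 32 and 17 bp upstream and 16 bp inside. The common peak lay 651 and 682 bp inside at DINOL and GMDS-DT and 589 and 629 bp upstream at LOC101928253 and HCG27. At NORAD, HCG14 and PLCB1-IT1 the common peak was the nearer one, with the depleted-specific peak 885, 804 and 861 bp upstream.

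**Figure D5:**
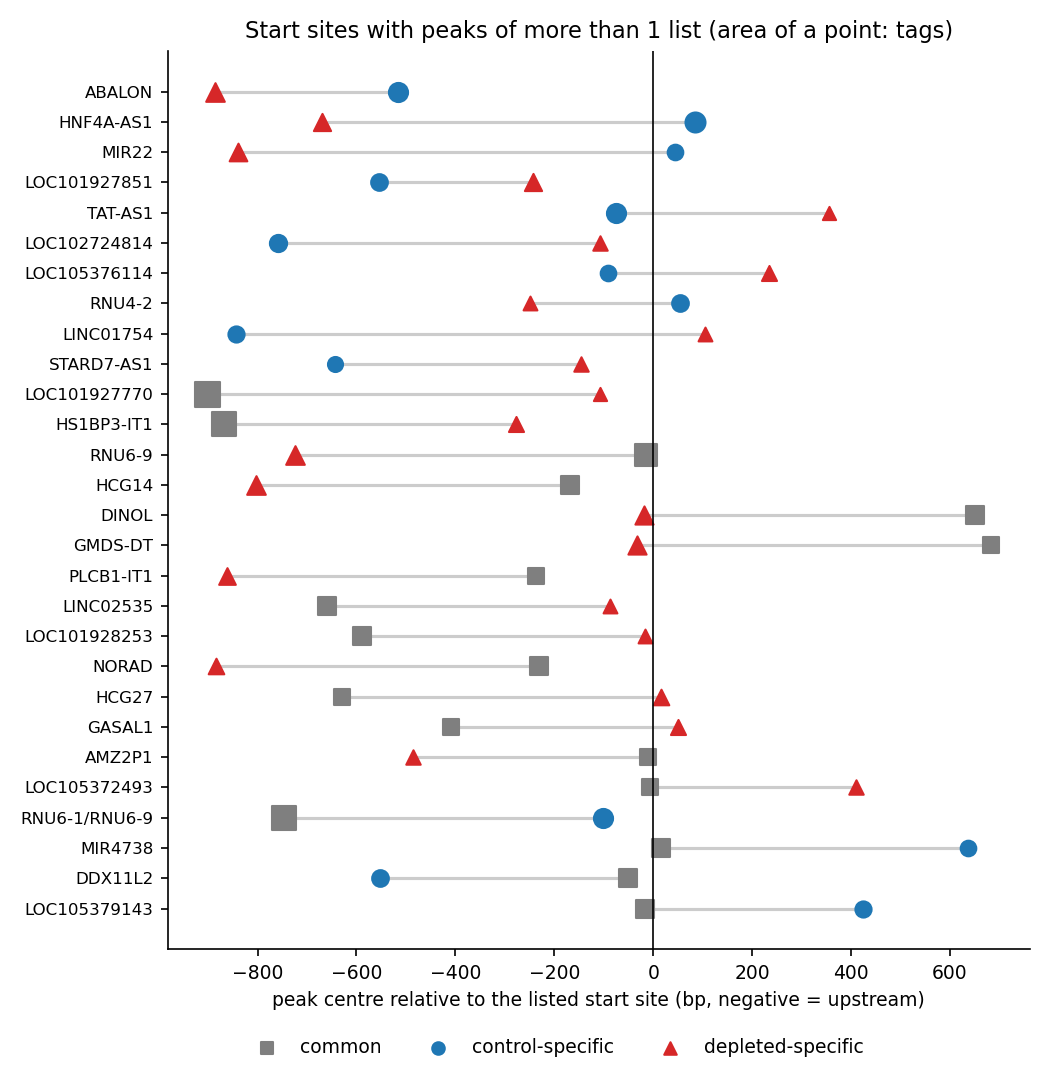
Distance of the peak centre from the listed start in bp (horizontal axis, negative upstream) for the 28 start positions with peaks of more than 1 list (vertical axis); the area of a point gives its tags. The rows from ABALON to STARD7-AS1 hold a control-specific and a depleted-specific peak, those from LOC101927770 to LOC105372493 a common and a depleted-specific peak, and the last 4 a common and a control-specific peak.

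In total, 29 of 130 control-specific members (22.3%, interval 15.5 to 30.4) had a peak of the depleted library within 1000 bp, 13 of them a common peak. For depleted-specific members it was 48 of 330 (14.5%, 10.9 to 18.8) with a peak of the control library, 32 of them common. Protein-coding promoters had shares of 27.9% (24.8 to 31.2) and 11.3% (10.0 to 12.6).

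The label of the cells was checked on promoters of hepatocyte genes. APOA1, APOA2, SERPINA1, HNF4A, FOXA1 and FOXA2 had a common promoter peak. TF had a control-specific one, and HNF4A had a control-specific one as well. ALB, AFP, TTR and FGB had none listed.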

How the data were processed

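FAIRE-seq had been done on 1 control and 1 NR2E3-depleted HepG2 library. According to the labels and the submitters' processing notes, the authors used bcl2fastq 2.17, Trimmomatic 0.39, Bowtie2 2.4.5 and SAMtools 1.14 on hg38, and called, compared and annotated peaks with HOMER. The deposited peak lists hold a signal value per peak, the HOMER score made by the authors, which is a scaled tag number. Listed scores were whole multiples of 0.407 (common and control-specific) or 0.507 (depleted-specific), and tags were the score divided by that step. Scores under 10 lay at most 0.0047 from a multiple. If the scale is HOMER's default, the depleted library had 0.802 times the tags of the control library. The other library's tags at a specific peak were not used here.

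HOMER's promoter-TSS class runs from 1000 bp before to 100 bp after a start. Its gene name, from the nearest start, can differ from the transcript behind the class. Members were matched by start position, and distances to protein-coding starts used GENCODE release 44. GGGCGG and CCAAT were searched on both strands in the hg38 sequence within 100 bp of the centre. Shares have exact Clopper-Pearson intervals, ratios of counts exact binomial intervals, differences of shares Newcombe intervals and ratios of ratios conditional odds ratio intervals, all at 95% and unadjusted. The limits given for a count of 0 are not of these kinds and are 3 counts over the number of peaks. No p-value was computed, since each group had 1 library. The code was tested on simulated data. Tables were handled with pandas 2.3.3 and numpy 2.4.6 in Python 3.11.15, intervals came from scipy 1.17.1, and plots from matplotlib 3.10.9.

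The genes named were the 5 highest scores per list, all members of gene lists (liver, p53-linked, host, short structural RNA and miRNA genes) and the genes at start positions with both specific lists, with exceptions said in the text, and 2 listed genes and 1 peak sequence are not reported here. The members and lists were chosen with earlier results of these data known. Alternatives were tag minimums, distances to the start, chromosomes, gene types and motif windows, and those on the transcript behind the promoter class and on renamed LOC genes were chosen after seeing the data.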

Additional observations from a re-analysis of the deposited data

Results flagged for a closer look

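Promoter peaks outside the 5 gene types were also listed. The type scRNA, which here holds genes of the 7SL RNA of the signal recognition particle, had 3 depleted-specific promoter peaks, at RN7SL1 (score 8.11, 16 tags), RN7SL2 (9.63, 19 tags) and RN7SL3 (10.1, 20 tags). This type had 0 of 900 in the control-specific list, which allows a share of up to 0.333%, and 0 of 3441 in the common list, which allows up to 0.0872%. The control-specific limit is above the depleted-specific share, so the specific lists are not told apart by these counts. A peak of the control library lay 719 bp from the RN7SL2 peak and 8347 and 8346 bp from those at RN7SL1 and RN7SL3. Near-identical 7SL copies make the placement of reads uncertain. A further 10 depleted-specific promoter peaks had no gene type listed, with 0 of 900 in the control-specific list and 8 in the common list. No difference between the lists was tested, since each group had 1 library.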

How the results depend on the processing

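Of 61 alternative values, 54 moved by less than the counting interval, 7 moved by more and 0 changed sign. The ratio of depleted-specific to control-specific members (2.54) was 1.93 with at least 15 tags, 3.76 without the 6 dense chromosomes, 1.75 on them alone and 1.74 with centres within 3000 bp of the listed start in place of the promoter class. The difference between the specific lists in the share near a protein-coding start (7.23 points) was 19.4 points (4.31 to 33.1) with at least 15 tags and 11.2 points (1.68 to 19.8) within 500 bp, and both intervals exclude 0. The interval of the ratio of ratios (0.783) included 1 with at least 15 tags, within 500 bp or 1000 bp of the start, and on either set of chromosomes. The difference in the share with GGGCGG (21.0 points) was 11.3 points within 50 bp of the centre, where fewer bases are searched, and 30.8 points for members near a protein-coding start. The cause of the other changes was not tested. The tag minimum bears on the lists unequally, since 1 tag is worth a larger score in the depleted-specific list. No paired analysis was possible because a single library stood for each condition, and for the same reason no library could be left out. At 9 to 30 tags per specific peak, a peak called in 1 library alone does not show that the other library had no signal there.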
